A study of Mus musculus with 4 samples.

Results

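Protocadherins are cell surface adhesion proteins of the cadherin superfamily, and 47 protocadherin genes were read on arrays of the olfactory mucosa of young adult and aged mice. The members were all genes whose symbol starts with *Pcdh* and that had at least 1 non-control probe whose accession was found in a RefSeq gene table (GRCm38.p6). They are 47 of the 45604 genes tested and were read by 66 probes. The table lists 70 such genes: 7 of 14 of the alpha subfamily, all 22 of the beta subfamily, 6 of 22 of the gamma subfamily and all 12 unclustered genes were on the array, and the other 23 were not matched to a probe. The 23 are *Pcdha1*, *Pcdha2*, *Pcdha3*, *Pcdha5*, *Pcdha6*, *Pcdha7*, *Pcdha10*, *Pcdhga2*, *Pcdhga3*, *Pcdhga4*, *Pcdhga6*, *Pcdhga7*, *Pcdhga8*, *Pcdhga11*, *Pcdhga12*, *Pcdhgb2*, *Pcdhgb4*, *Pcdhgb5*, *Pcdhgb6*, *Pcdhgb7*, *Pcdhgb8*, *Pcdhgc3* and *Pcdhgc4*, and none of them was analysed here.

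The alpha, beta and gamma genes lie in tandem on one chromosome and are called clustered protocadherins. In each alpha or gamma transcript one variable exon, with its own promoter, is spliced to constant exons that all members of that cluster share, whereas each beta gene is a single coding exon. A neuron transcribes only a small and largely random choice of these exons, CTCF and cohesin bring the chosen promoters to distant enhancers, and the proteins bind like with like between membranes, by which a neuron tells its own branches from those of others. Olfactory receptor neurons (ORNs), which are replaced throughout life and send axons to the olfactory bulb, use clustered protocadherins in sorting those axons. The unclustered genes are scattered over the genome, include the delta group (*Pcdh1*, *Pcdh7*, *Pcdh8*, *Pcdh9*, *Pcdh10*, *Pcdh11x*, *Pcdh17*, *Pcdh18* and *Pcdh19*), and several delta members are known to be expressed in subsets of ORNs.

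The labels give the sample as septal nasal mucosa of C57BL/6J mice at 8 weeks (young adult) or 16 months (aged). The study's methods give the mice as male, name the strain without the substrain and give the tissue of the arrays as nasal mucosa. The tissue is labelled olfactory epithelium. RNA of 5 mice was pooled for each of 4 one-color arrays, 2 for each age, so the spread between arrays of one age is a spread between pools. Whether the pools of one age share mice is not stated, but the study's methods count too few mice per age for gene work to fill separate pools. The standard errors, P and FDR values below therefore measure only the spread between these pools, which may be partly or wholly technical. The description and a further label speak of silica and lung, against the titles and the study's methods. They were not used, and the mice were taken as untreated. All 13 markers of mature ORNs, among them *Omp*, had a probe above background in both ages. The mucosa holds bone, vessel and connective tissue cells besides the epithelium, and in such bulk RNA fewer cells of a type and less RNA per cell cannot be told apart.

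A level below is a normalized intensity, the brightness of a gene's probes on one array after background correction and quantile normalization, in scanner units. Levels of different genes come from different probes and are not set against each other. A fold change is aged over young adult on the log2 scale, with the standard error (SE) of the limma fit on 2 arrays per age. A gene is called when limma's P is below 0.05 and its Benjamini-Hochberg FDR over all genes is below 0.25, and is counted as differentially expressed (a DEG) when it is called, has a mean level of at least 100 and changes at least 1.5-fold, the limits of the study's methods. Of the 66 probes, 48 were well above background on all 4 arrays, and no member had a saturated spot. A total of 36 genes had a probe above background on every array, and *Pcdhac1* and *Pcdhb8* had none above background on any array.

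The promoters of *Pcdh10* and *Pcdh20* are shown because these are the unclustered genes that were called higher in aged mice. Each is given as the 250 bases before the annotated start, 5′ to 3′ on the strand of the gene, from RefSeq (GRCm38.p6). Capitals mark CCAAT, a common promoter element, or ATTGG, which is CCAAT on the other strand. The *Pcdh10* sequence is chr3:45378148-45378397 on the plus strand and the *Pcdh20* sequence is chr14:88471397-88471646 on the minus strand.
Pcdh10: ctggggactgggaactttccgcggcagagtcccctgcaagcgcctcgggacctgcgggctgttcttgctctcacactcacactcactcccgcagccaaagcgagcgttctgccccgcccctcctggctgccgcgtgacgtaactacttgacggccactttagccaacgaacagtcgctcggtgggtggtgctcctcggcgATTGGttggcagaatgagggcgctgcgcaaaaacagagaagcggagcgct
Pcdh20: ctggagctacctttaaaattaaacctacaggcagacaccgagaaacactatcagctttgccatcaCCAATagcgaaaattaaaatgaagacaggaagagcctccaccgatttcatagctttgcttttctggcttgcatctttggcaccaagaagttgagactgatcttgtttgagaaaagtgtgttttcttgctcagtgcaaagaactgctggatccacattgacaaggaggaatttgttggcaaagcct

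Both sequences hold the element, *Pcdh10* on the other strand close to the start and *Pcdh20* on its own strand far from it. They differ in base composition. Over the 300 bases from 250 before to 50 after the start, the *Pcdh10* window had a GC content of 62.3% and 24 CpG dinucleotides, and the *Pcdh20* window 43.7% and 4. The table held 10 such windows for 9 unclustered genes (*Pcdh7*, *Pcdh8*, *Pcdh9* with 2 overlapping windows, *Pcdh10*, *Pcdh15*, *Pcdh17*, *Pcdh18*, *Pcdh19* and *Pcdh20*), with a median GC content of 62.3% and a median of 18 CpG dinucleotides, against 52.7% and 7 over all 32841 windows of 27018 genes. CCAAT on either strand was in 9 of the 10 windows and in 37.4% of all windows. *Pcdh1*, *Pcdh11x* and *Pcdh12* are not shown.

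In 4 of the 10 windows the element was part of a longer run, CCANCCAAT, which reads ATTGGNTGG on the other strand and was in 1.98% of all windows. This run was chosen after these promoters had been read, and a match is a description of letters and not of a bound site. The 4 stretches of 30 bases are shown because they place the same run at a similar distance before the start, with the run in capitals. They are chr3:45378338-45378367 (plus strand) for *Pcdh10*, chr14:84443495-84443524 (plus strand) for *Pcdh17*, chr3:49757329-49757358 (minus strand) for *Pcdh18* and chr14:79771361-79771390 (minus strand) for *Pcdh8*.
Pcdh10: ctcctcggcgATTGGTTGGcagaatgaggg
Pcdh17: ccccacgccgATTGGCTGGcagagaatcag
Pcdh18: aagctcgctgATTGGCTGGaagcgattcaa
Pcdh8: ctaagcgaccATTGGCTGGccccttccagt

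The run began 50 bases before the start in *Pcdh10*, 58 in *Pcdh17*, 32 in *Pcdh18* and 68 in *Pcdh8*. These 4 genes did not move alike with age. Of them *Pcdh10* was called higher, and the fold changes of the others were 0.04, -0.46 and 0.10 on the log2 scale, in the order given, none of them called.

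Aging was accompanied by changes in few protocadherins, and most of those were rises. A total of 6 of the 47 genes were called, 12.8% of them, where 3.98% of all genes were called. *Pcdh10*, *Pcdhga1*, *Pcdhb14* and *Pcdh20* were higher in aged mice (8.51% of members against 1.65% of all genes), and *Pcdh12* and *Pcdhb10* were lower (2.33% of all genes were called lower). *Pcdh10* was the only DEG, where 0.814% of all genes were DEGs with higher and 1.15% with lower expression. At an unadjusted P below 0.05 there were 10 higher and 3 lower genes (6.05% and 7.08% of all genes).

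*Pcdh10*, also known as OL-protocadherin, is a delta protocadherin of the forebrain and olfactory system. Its level was 1808 and 1748 in young adult mice and 3298 and 3202 in aged mice. Both aged arrays lay far above both young adult arrays, and arrays of one age differed little. The fold change was 0.87 (SE 0.078, limma FDR = 0.178), a ratio of 1.83. The gene was read by 3 probes made to 3 transcript accessions, and each gave the same direction. Their fold changes were 0.81 for the probe with levels of 6645 and 6673 in young adult and 12430 and 10962 in aged mice, 0.87 for the one with 4432 and 3979 against 7899 and 7466, and 0.93 for the one with 201 and 201 against 365 and 401.

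*Pcdh20* is an unclustered gene known to be expressed in ORNs. Its single probe gave 122 and 112 in young adult mice and 167 and 168 in aged mice. The aged arrays were alike and above both young adult arrays. The fold change was 0.53 (SE 0.088, limma FDR = 0.230), a ratio of 1.44 and below the limit for a DEG. *Pcdhb14*, a beta gene, had levels of 476 and 456 in young adult and 724 and 665 in aged mice, again without overlap. Its fold change was 0.58 (SE 0.090, limma FDR = 0.219), and its ratio of 1.49 lay just under the limit for a DEG.

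*Pcdhga1*, the first variable exon of the gamma cluster, gave 62.0 and 65.0 in young adult mice and 107 and 99.4 in aged mice. The aged arrays were higher without overlap, with a fold change of 0.70 (SE 0.089, limma FDR = 0.201) and a ratio of 1.63, but its mean level of 83.5 kept it below the limit of 100. With a background offset of 50, which shrinks the changes of dim probes, the fold change of *Pcdhga1* was 0.43.

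*Pcdh12*, known as VE-cadherin-2 and expressed in endothelial cells, moved the other way. Its level was 112 and 124 in young adult mice and 60.7 and 74.3 in aged mice, with both aged arrays below both young adult arrays. The fold change was -0.81 (SE 0.15, limma FDR = 0.241), and its mean level of 92.7 was below the limit for a DEG. Of its 2 probes, the brighter gave 400 and 373 against 179 and 206, a fold change of -1.01. The other was above background on no array and gave -0.61.

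*Pcdhb10*, a beta gene, had levels of 109 and 103 in young adult mice and 79.0 and 72.4 in aged mice. The groups did not overlap, but the probe was above background on only 1 of the aged arrays. The fold change was -0.49 (SE 0.093, limma FDR = 0.249), the closest to the limit among the called genes. With the scanner software's processed signal scaled to the 75th percentile it was -0.78, and with a background offset of 50 it was -0.31.

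**Figure D1:**
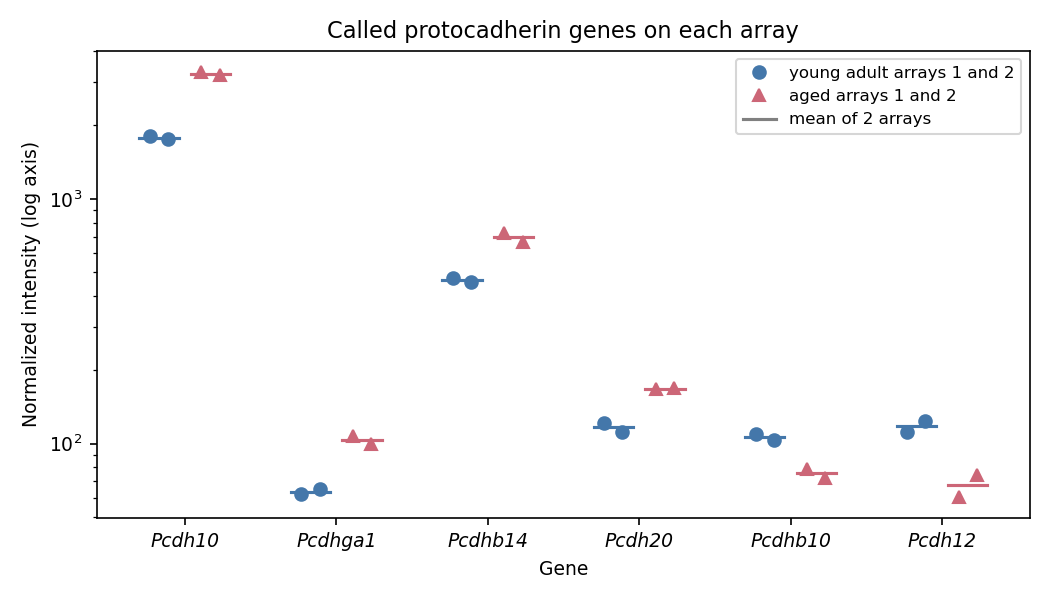
Normalized intensity (log axis, scanner units) of the 6 called protocadherin genes on each of the 4 arrays, with circles for young adult arrays, triangles for aged arrays and a line at the mean of each age. In every gene the arrays of the 2 ages do not overlap, and *Pcdh10* rises from 1808 and 1748 to 3298 and 3202.

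The arrays numbered 1 of both ages shared a slide, and each other array had its own. The change within that slide and the change between the remaining arrays were 0.87 and 0.87 for *Pcdh10*, 0.79 and 0.61 for *Pcdhga1*, 0.61 and 0.54 for *Pcdhb14* and 0.46 and 0.59 for *Pcdh20*. For the genes that fell they were -0.88 and -0.74 for *Pcdh12* and -0.47 and -0.51 for *Pcdhb10*. All 6 genes changed in the same direction in both pairs, which the lack of overlap between their ages had already fixed. When any 1 of the 4 arrays was left out, 1 age had a single array and no call held. The fold change of *Pcdh10* was then between 0.85 and 0.89, and that of *Pcdh12* between -0.96 and -0.66. Scaling to the 75th percentile in place of quantile normalization kept the calls of *Pcdh10*, *Pcdhb14* and *Pcdh12* and ended those of *Pcdhga1*, *Pcdh20* and *Pcdhb10* (limma FDR = 0.275, 0.277 and 0.409). The same scaling of the scanner software's processed signal ended that of *Pcdh12* (limma FDR = 0.382) as well as those of *Pcdhga1* and *Pcdh20*, and kept that of *Pcdhb10* (0.224). With the replicate number as a block all 6 calls ended (limma FDR = 0.433).

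**Figure D2:**
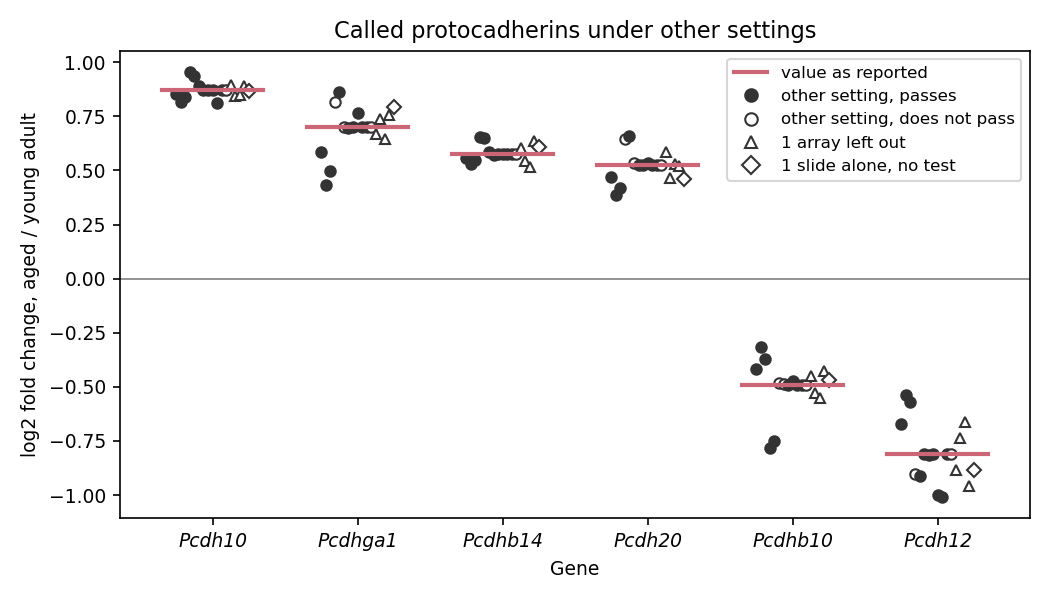
Log2 fold change (aged over young adult) of the 6 called genes as reported (line) and under every other setting tried, with filled circles where the call holds, open circles where it does not, triangles for 1 array left out and diamonds for the slide with both ages alone. Each gene keeps its direction in all of them, and *Pcdh10* stays between 0.81 and 0.96. For the triangles and diamonds the direction was fixed by the lack of overlap between the ages.

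Of all 47 members, 32 were higher and 15 lower in aged mice, with a median fold change of 0.11 against 0.0093 over all genes, of which 51.5% were higher. The 2 ages did not overlap in 30 of the 47: 23 had both aged arrays above both young adult arrays and 7 had them below. Over all genes the shares were 24.2% and 21.8%, or 46% in either direction. The size of the median depended on the pair of arrays, at 0.039 with 27 genes higher within the shared slide and 0.15 with 36 genes higher between the other arrays. In 11 of the 47 genes the pairs differed in sign.

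In the alpha cluster 7 genes were read, and none was called. At an unadjusted P below 0.05, 1 was higher and none lower. The 5 variable genes *Pcdha4*, *Pcdha8*, *Pcdha9*, *Pcdha11* and *Pcdha12* all had higher levels in aged mice without overlap, with fold changes from 0.13 to 0.23. Of all genes 24.2% were higher without overlap. *Pcdha8* gave 1788 and 1800.4 in young adult mice and 2114 and 2083 in aged mice, a fold change of 0.23 (SE 0.074, limma FDR = 0.375). *Pcdha12* gave 354 and 349 against 424 and 396, a fold change of 0.22 (limma FDR = 0.417). *Pcdha11* gave 145 and 115 against 145 and 151, so that 1 array of each age was almost equal. Its fold change of 0.20 (limma FDR = 0.635) was 0.033 without young adult array 2.

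The last exons of the alpha cluster, *Pcdhac1* and *Pcdhac2*, are of the C type, which many neurons transcribe more uniformly than the other exons. *Pcdhac2* gave 4799 and 4535 in young adult mice and 4738 and 4447 in aged mice. The ages overlapped, the fold change was -0.02 (SE 0.087), and its 2 probes gave -0.04 and -0.01. *Pcdhac1* was not well above background on any array. *Pcdha4*, *Pcdha9*, *Pcdhac1* and *Pcdhac2* are named to complete the cluster and fall outside the rule for naming genes. The median of the 7 alpha genes was 0.18, but 0.018 within the shared slide and 0.18 between the other arrays.

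The beta cluster was read in full, with 1 probe for each of its 22 genes, and 16 of these probes were above background on all 4 arrays. A total of 16 genes were higher and 6 lower, with a median of 0.097. The ages did not overlap in 9 genes that were higher and 3 that were lower. Over all genes the shares were 24.2% and 21.8%. Besides *Pcdhb14* and *Pcdhb10*, the largest change by the rule for naming genes was that of *Pcdhb13*, with 114 and 104 in young adult and 136 and 162 in aged mice. Its fold change was 0.45 (SE 0.13, limma FDR = 0.341), and it was not called. Beta genes resemble one another in sequence, and whether a probe also binds the transcripts of its neighbors was not tested.

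Taken in their order on chromosome 18, the beta genes after *Pcdhb7* fell into stretches with the same sign of the mean change. Those up to *Pcdhb7* were mixed. These stretches were chosen after their values had been seen, so they are given as a description with no test. From *Pcdhb12* to *Pcdhb22* all 11 genes had a higher mean in aged mice, 7 of them without overlap (24.2% of all genes). Their fold changes ran from 0.058 to 0.58, with a median of 0.26. A total of 10 of the 11 were above background on all arrays. Within the shared slide 8 of the 11 were higher (median 0.16), and between the other arrays all 11 were (median 0.33). *Pcdhb17* may serve as an example, with 767 and 778 in young adult mice and 975 and 939 in aged mice, a fold change of 0.31 (SE 0.077, limma FDR = 0.300). *Pcdhb18* gave 413 and 412 against 513 and 485, a fold change of 0.28 (limma FDR = 0.338).

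The 4 genes before this stretch, from *Pcdhb8* to *Pcdhb11*, all had a lower mean, with a median of -0.46 (-0.56 within the shared slide and -0.25 between the other arrays). They were not all lower in each pair of arrays: *Pcdhb8* was higher within the shared slide and *Pcdhb11* between the other arrays. Only *Pcdhb9* of these was above background on all arrays, with 134 and 86.3 in young adult mice and 85.6 and 73.5 in aged mice, a fold change of -0.44 (SE 0.27, limma FDR = 0.580). *Pcdhb11* was above background on young adult array 1 alone, where it gave 102, and was at 36.7 on young adult array 2. In aged mice it gave 34.6 and 43.0, so the ages overlapped (limma FDR = 0.680), and the change was -1.57 within the shared slide and 0.23 between the other arrays. Of the first 7 genes 5 were higher, with a median of 0.054. *Pcdhb1* lay just outside the limit for a call: it gave 829.5 and 859 in young adult mice and 1136 and 1091 in aged mice, a fold change of 0.40 (SE 0.079, limma FDR = 0.258). *Pcdhb1*, *Pcdhb8*, *Pcdhb9*, *Pcdhb11*, *Pcdhb17* and *Pcdhb18* were chosen for naming after their values had been seen.

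**Figure D3:**
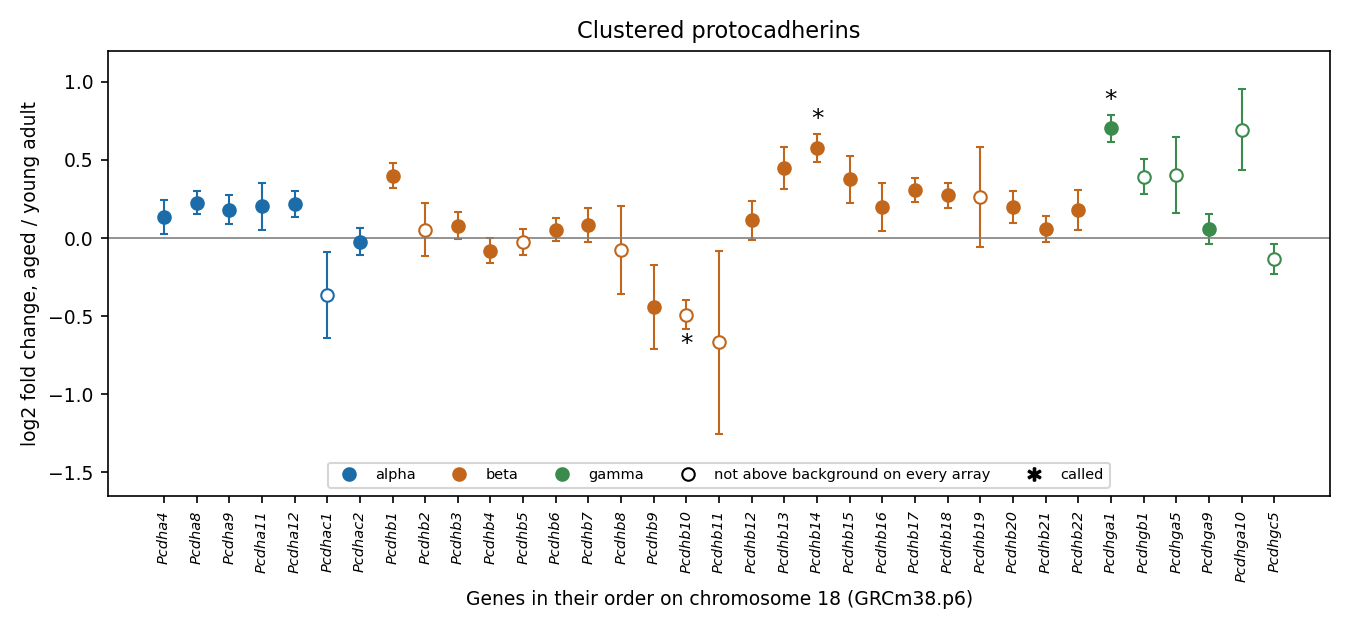
Log2 fold change (aged over young adult) of the 35 clustered protocadherins in their order on chromosome 18, with bars for the standard error of the limma fit, colors for the subfamily, open circles where no probe was above background on every array and stars for called genes. All 11 beta genes from *Pcdhb12* to *Pcdhb22* lie above 0, and the 4 before them lie below.

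The gamma cluster was covered thinly, by 7 probes for 6 genes, of which 3 probes were above background on all arrays. A total of 5 genes were higher and 1 lower, with a median of 0.40 that rests on dim probes. *Pcdhga9*, the other gamma gene with a probe above background on every array, gave 2896 and 2643 in young adult mice and 2965 and 2792 in aged mice. The ages overlapped, with a fold change of 0.057 (SE 0.095, limma FDR = 0.830), and its 2 probes, both above background, differed in sign at -0.02 and 0.13. They were far apart in level, at 16726 and 15388 against 15867 and 15805 for the first and 502 and 454 against 554 and 493 for the other. Whether the brighter probe also reads other gamma transcripts was not tested. *Pcdhga10* was above background on 1 aged array only, with 53.3 and 62.9 in aged mice, both above its values in young adult mice, of which the higher was 44.1 (limma FDR = 0.416). *Pcdhgb1*, at 54.2 and 63.0 against 77.7 and 75.9, was above background on 1 array of each age (fold change 0.39, limma FDR = 0.333). *Pcdhga5* and *Pcdhgc5*, at 0.40 and -0.13, were each above background on no more than 1 array of an age. These last 4 genes were chosen for naming after their values had been seen.

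All 12 unclustered genes had a probe above background on every array. They were divided, with 6 higher and 6 lower and a median of 0.018. *Pcdh18*, a delta member expressed in mesenchymal and neural tissue, gave 1641 and 1691 in young adult mice and 1123 and 1309 in aged mice. Both aged arrays were lower, with a fold change of -0.46 (SE 0.11, limma FDR = 0.299), which missed the limit for a call. Under 6 of the other settings it was called, but these called 6.55% to 24.6% of all genes, against 3.98% here. *Pcdh19*, an X-linked delta member in which mutations cause an epilepsy, gave 1549 and 1399.5 against 1245 and 1245, a fold change of -0.24 (SE 0.093, limma FDR = 0.421). Its 2 probes gave -0.16 and -0.32.

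*Pcdh9*, a delta member of the nervous system, gave 272 and 277 in young adult mice and 310.1 and 308 in aged mice, a fold change of 0.17 (SE 0.075, limma FDR = 0.464). Its 3 probes were made to different transcript accessions and were not alike. One gave 615 and 670.2 against 928 and 799, a fold change of 0.42, and the others gave 0.04 and 0.05. *Pcdh7*, likewise of the delta group, gave 576 and 545 against 608 and 602, a fold change of 0.11 (SE 0.080), with probes from 0.001 to 0.29. *Pcdh8*, known as arcadlin and induced by neural activity, gave 1352 and 1312 against 1434 and 1413, a fold change of 0.10 (SE 0.076). Both genes were higher on both aged arrays, and neither was called (limma FDR = 0.623 and 0.652).

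*Pcdh17*, a delta member that acts in axon growth and at the presynaptic side, gave 7415 and 6626 in young adult mice and 7176 and 7221 in aged mice. The ages overlapped, with a fold change of 0.038 (SE 0.096, limma FDR = 0.890). *Pcdh11x*, on the X chromosome, gave 154 and 142 against 138 and 158, a fold change of -0.002 (SE 0.12). *Pcdh15*, a part of the tip links of hair cells, gave 59.4 and 45.6 against 43.1 and 59.1, a fold change of -0.04 (SE 0.24), and its 6 probes ran from -0.28 to 0.14. The groups overlapped in each of these 3 genes.

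*Pcdh1*, an adhesion protein of airway epithelium, showed how 1 array can set a mean. It gave 287 on young adult array 1 and 146, 148 and 145 on the other 3 arrays, a fold change of -0.49 (SE 0.38, limma FDR = 0.649). A single probe was at 372 on young adult array 1 and at 46.9, 61.5 and 55.9 on the others, whereas the brightest of the 3 probes was at 1507, 1628, 1532 and 1594, a fold change of -0.003. Without young adult array 1 the fold change of *Pcdh1* was 0.0015.

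**Figure D4:**
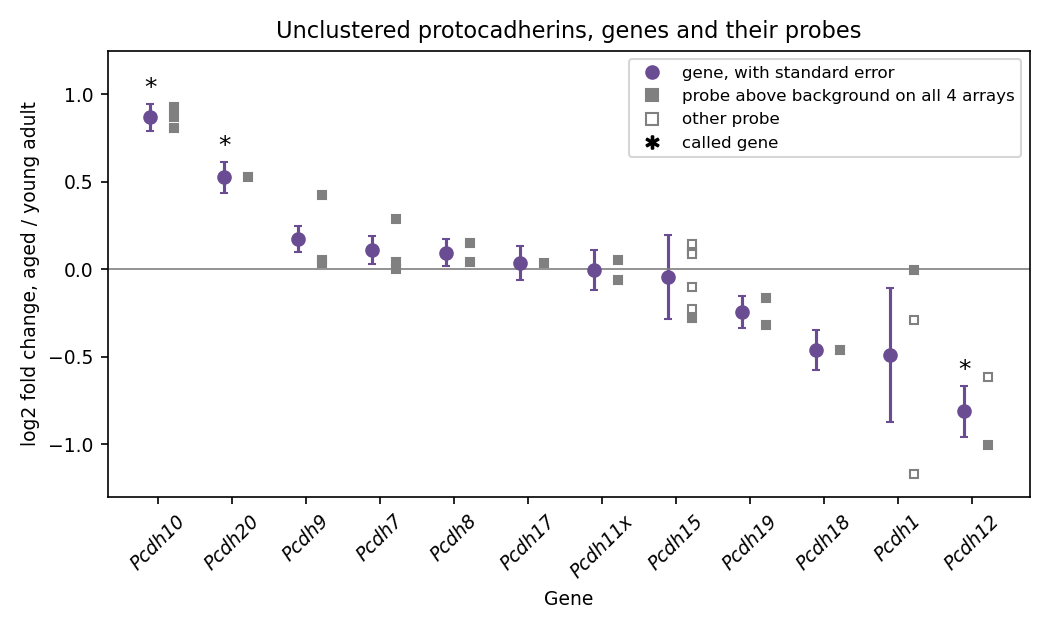
Log2 fold change (aged over young adult) of the 12 unclustered protocadherins (circles, with the standard error of the limma fit) and of each of their 29 probes (squares, filled where above background on all 4 arrays), with stars for called genes. The 3 probes of *Pcdh10* lie together at 0.81 to 0.93, and those of *Pcdh1* are spread from -1.17 to -0.003.

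Markers of the cell types of the mucosa moved with age as well. Of all genes 24.2% were higher and 21.8% lower without overlap, and 1.65% were called higher and 2.33% lower. All 13 markers of mature ORNs had higher levels in aged mice without overlap, with a median fold change of 0.25, and 1 was called, *Stoml3* (0.43). Their summed level was 591800 and 582800 in young adult and 646900 and 655000 in aged mice. Such a sum is set mostly by the brightest markers: *Omp* alone, which was not called, gave 300830 and 286060 against 317840 and 332590. *Pcdh10*, *Pcdhga1*, *Pcdhb14* and *Pcdh20* moved in the direction of the mature ORN markers. So did 5 of 7 sustentacular and 7 of 8 pituitary markers. From these same arrays the study reported olfactory transduction as a function of genes that rose with age. Its tissue sections went the other way from the mature ORN markers, with fewer OMP-positive mature ORNs in aged mice. That is a count of cells and not a level of RNA, and the difference was not examined here. Of the 10 markers of immature ORNs 9 were lower, with summed levels of 83560 and 82000 against 68260 and 67460, and 1 was called, *Dpysl3* (-0.40). Of the 10 markers of basal and progenitor cells 7 were lower, and *Kit* (-0.60) and *Krt5* (-0.49) were called. In the study's sections GAP43-positive immature ORNs were fewer in aged mice, and SOX2-positive progenitors did not differ significantly. The part that these cells have in the changes of the protocadherins was not tested.

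*Pcdh12* moved in the direction of the endothelial markers. All 12 of these were lower in aged mice without overlap (21.8% of all genes), 8 were called (2.33% of all genes were called lower), and their median fold change was -0.56. Their summed level was 42660 and 41650 in young adult and 27210 and 26790 in aged mice. Endomucin (*Emcn*) gave 1850 and 1880 against 1071 and 1101, and *Tie1* gave 453 and 477 against 286 and 235. *Cdh5*, which codes for VE-cadherin, gave 699 and 687 against 489 and 570, with a fold change of -0.39 (limma FDR = 0.335) that did not pass the test. No marker of this list was below background, and its part in the change of *Pcdh12* was not tested.

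*Pcdh18*, whose difference did not pass the test, lay on the side of the fibroblast markers. Of these all 10 were lower and 6 called, where 2.33% of all genes were called lower. Their summed levels, set mostly by the brightest markers, were 251100 and 226500 in young adult and 126600 and 118700 in aged mice. The largest falls there were those of the collagens *Col1a1* and *Col3a1* (-1.98 and -1.97), while *Pdgfra* gave -0.29 and *Dcn* -0.19. Other non-neuronal lists had mostly lower members. For smooth muscle and pericytes 7 of 8 markers were lower and 3 called, for Schwann and ensheathing cells all 9 were lower and 5 called, for macrophages all 6 were lower and 4 called, and for cells of bone and cartilage all 8 were lower and 6 called. Of 7 sustentacular markers 5 were higher and 2 lower and none was called, with 1 lower at an unadjusted P below 0.05. Ciliated cells had 7 of 8 markers lower, 2 of them at an unadjusted P below 0.05 and none called. Vomeronasal neurons had 3 of 6 markers higher, with 1 higher and 1 lower at that P and none called. Of 8 pituitary markers 7 were higher, and *Prl* (4.96) and *Gh* (3.15) were called higher in aged mice, where 1.65% of all genes were. *Prl* gave 282 and 238 in young adult and 8155 and 7969 in aged mice, and *Gh* gave 37.3 and 37.1 against 326 and 336. How any of these lists bears on a protocadherin was not tested. *Omp*, *Cdh5*, *Pdgfra* and *Dcn* were named as known markers after their values had been seen.

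**Figure D5:**
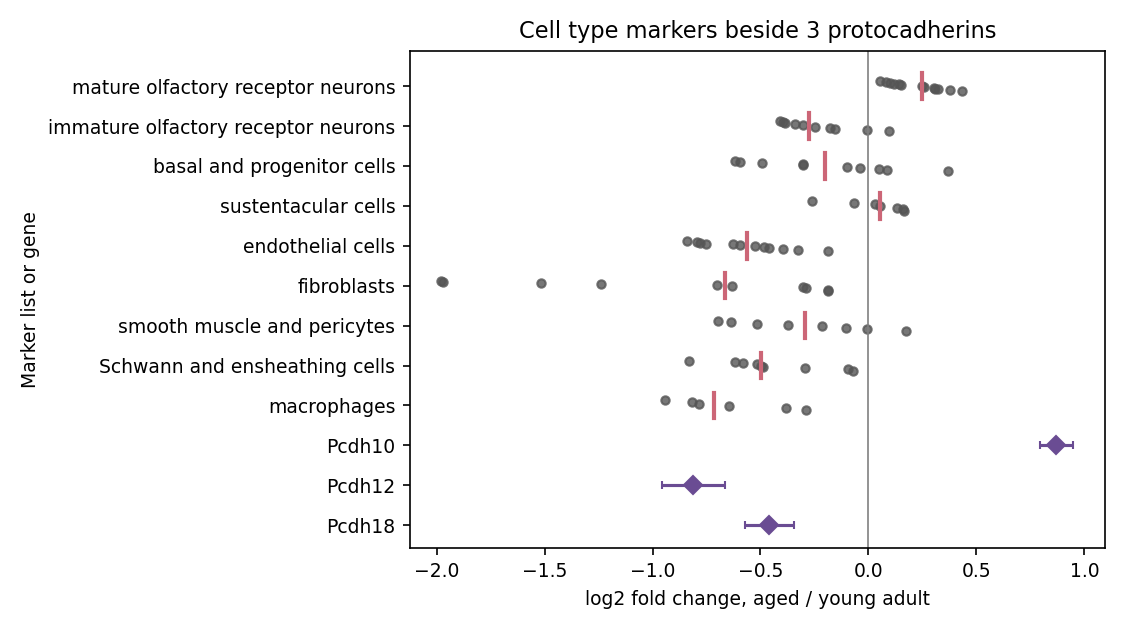
Log2 fold change (aged over young adult) of each marker gene in 9 lists of cell type markers (points, with a bar at the list's median) beside *Pcdh10*, *Pcdh12* and *Pcdh18* (diamonds, with the standard error). The mature ORN markers lie above 0, and the endothelial and fibroblast markers lie below.

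No gene of the lists of proteins that act on protocadherins passed the test. Of 21 genes for cohesin, CTCF and chromatin proteins that set which clustered promoters are used, 13 were higher and 8 lower, with a median of 0.031, and none was called by limma. At an unadjusted P below 0.05, 1 was lower and none higher. *Ctcf* gave 2710.0 and 2812 in young adult and 2864 and 3003 in aged mice (fold change 0.087), and *Smchd1*, a repressor of the clusters, gave 1730 and 1672 against 1808 and 1860 (fold change 0.11). The gene at that P was *Tet1*, a DNA demethylase, at 428 and 467 against 345 and 345 (fold change -0.37, limma FDR = 0.291). *Ctcf*, *Smchd1* and *Tet1* were chosen for naming after their values had been seen. Under 6 of the other settings *Tet1* was called, but these called 6.55% to 24.6% of all genes, against 3.98% here.

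Of 28 genes for proteins that bind, cut or signal for protocadherins, 14 were higher and 14 lower, and none was called by limma. At an unadjusted P below 0.05, 1 was lower and none higher, and that gene was *Marcks*, a membrane substrate of protein kinase C. It gave 2389 and 2265 against 1746 and 1794, a fold change of -0.39 (limma FDR = 0.263). It was called under 8 of the other settings, which called 5.11% to 24.6% of all genes, against 3.98% here. It was named after its values had been seen.

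The rest of the cadherin superfamily was read by 47 genes, of which 17 were higher (36.2%, against 51.5% of all genes) and 30 lower, with a median of -0.073. A total of 3 were called (6.38%, against 3.98% of all genes). *Cdh19*, a cadherin of neural crest derived glia, was higher, at 228 and 202 in young adult and 349 and 351 in aged mice (fold change 0.70, limma FDR = 0.209). *Cdh13*, a cadherin without a cytoplasmic domain, was lower, at 517 and 499 against 327 and 317 (fold change -0.66, limma FDR = 0.193). *Fat4*, a giant atypical cadherin, was lower, at 516 and 543 against 373 and 366 (fold change -0.52, limma FDR = 0.216). The difference between the medians of the cadherin list and of the protocadherins was not tested.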

How the data were processed

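The arrays were Agilent one-color mouse gene expression arrays. The authors labelled the RNA with Cy3, scanned the arrays and deposited, for each spot, the intensity with its local background and flags from Feature Extraction 11.0.1.1, without normalization between arrays. The deposited table of the series held the processed intensity of the same arrays, equal at all 62976 spots.

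The median spot intensity was used, since the mean was not among the deposited columns. The local background was removed with limma's normexp method (limma 3.58.1, R 4.3.3) at an offset of 0. Control spots and spots with outlier flags (88 to 118 per array) were left out. Spots of a probe were averaged in log2, arrays were quantile normalized, and then probes of a gene were averaged in log2. Normexp shrinks dim spots toward a floor, and quantile normalization removes any shift that all genes share. Accessions matched a RefSeq gene table (GRCm38.p6) for 32994 of 56605 probes (58.3%). The array design uses another build, so no probe coordinates are given. Genes with a missing value (12) were left out.

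Differences between ages were fitted with limma over all 45604 genes on 4 arrays, 2 per age, without covariates. An exact two-sided permutation test of 2 against 2 arrays cannot give a P below 0.333, so calls rest on limma's moderated spread (2 residual and 1.38 prior degrees of freedom). The number of arrays limits the precision, and for dim probes so does the signal over background: 63.1 to 76.8% of spots were well above it. The fit was tested on simulated data.

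Genes named are all called members, all unclustered genes, the 3 largest changes among the members above background in each subfamily, clustered genes whose bright probes differ in sign, and up to 6 called genes of each list, unless said otherwise. The members and the lists were chosen with earlier results of these data known. The alternatives tried are given with the limits below.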

Additional observations from a re-analysis of the deposited data

How the results depend on the processing

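The 6 called genes kept their direction under every alternative run, and 59 of the 72 combinations of these genes with an alternative that used all arrays kept the call. *Pcdh10* and *Pcdhb14* were called under all of these but the replicate block. The slide as a random block could not be fitted with 4 arrays. Only 3 of the 7 gamma probes were above background on all arrays, which limits what can be said of that cluster.

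Against 4 protocadherins called higher and 2 lower, there were 9 higher with a background offset of 50 (10% of all genes called, against 3.98%), 8 without background correction (8.83%), 11 and 3 with the processed signal under quantile normalization (9.59%), 11 and 4 when dim probes were left out (38 genes tested, with 24.6% of all genes called) and 9 and 4 with an intensity trend (15.6% of all genes called). With scaling to the 75th percentile there were 2 and 1 (3.09%), with the same scaling of the processed signal 2 and 1 (3.3%), and with cyclic loess 1 was lower (5.11%). DEGs numbered 2 higher with either scaling to the 75th percentile and 3 with the processed signal under quantile normalization, and 1 lower, *Pcdh12*, with an offset of 16, without dim probes and with the brightest probe per gene.

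The replicate numbers do not pair the samples by any label. Deviations of arrays with the same number correlated at -0.0779 across genes over 2 pairs. With the replicate block limma called 0 protocadherins in either direction, 0 DEGs and 0 of all genes. At an unadjusted P below 0.05, 6 protocadherins were higher and 3 lower, where 11.4% of all genes passed that limit. With each array left out in turn 1 age had a single array, and no call or DEG held in any case.

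The gamma median of 0.40 became 0.30 and 0.20 with offsets of 16 and 50, 0.26 without background correction, 0.59 with the processed signal scaled to the 75th percentile and 0.67 with that signal under quantile normalization. Within the slide that holds both ages the median of all members was 0.039, that of alpha 0.018 and that of the unclustered genes -0.10. With 1 array left out the medians ran from 0.055 to 0.15 for all members, 0.033 to 0.22 for alpha, 0.059 to 0.20 for beta, 0.20 to 0.45 for gamma and -0.052 to 0.12 for the unclustered genes.

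No called gene reversed, but several of the runs could not turn its sign. Among the 20 genes recomputed one by one the sign turned in 5, and the cause was not tested. *Pcdh11x* (-0.002) was 0.0040 without background correction, 0.011 with the processed signal scaled to the 75th percentile, 0.034 with that signal under quantile normalization, 0.017 with scaling to the 75th percentile, 0.0084 with cyclic loess, 0.0068 without dim probes, and -0.10 to 0.097 with 1 array left out, among them 0.058 without young adult replicate 1. *Pcdhga9* was -0.019 with its brightest probe and -0.0095 without young adult replicate 2. With 1 array left out *Pcdh1* ran from -0.98 to 0.0015, *Pcdh15* from -0.27 to 0.18 (0.15 without young adult replicate 1) and *Pcdh17* from -0.043 to 0.12.

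For the regulators, 1 gene was called with offsets of 16 and 50, without background correction and with the processed signal under quantile normalization, and 2 without dim probes and with an intensity trend. For the partners, 1 was called with either offset, without background correction, with the processed signal under quantile normalization, with cyclic loess and with the brightest probe, 3 without dim probes and 5 with an intensity trend. For the other cadherins, 7 were called with an offset of 50, without background correction and with the processed signal under quantile normalization. There were 10 without dim probes, 6 with the brightest probe and 11 with an intensity trend. No call held with the replicate block or with any 1 array left out. Of all genes, 6.55% were called with an offset of 16, 10% with one of 50 and 8.83% without background correction. The share was 9.59% with the processed signal under quantile normalization, 5.11% with cyclic loess and 5.3% with the brightest probe. It was 24.6% without dim probes and 15.6% with an intensity trend, against 3.98% in the fit as reported.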
